A study of Homo sapiens with 2 samples.

Results

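In MDA-MB-231 cells, a human triple-negative breast cancer line, 10 of the 4998 genes in the authors' transcript table had opposite transcript switches between RBMS1-depleted and control cells. In each of these genes at least 1 transcript, here called lost, was listed at 0 after knockdown and at 2 FPKM or more in control cells, and at least 1 other transcript, here called gained, was listed at 0 in control cells and at 2 FPKM or more after knockdown. FPKM counts the fragments of a transcript relative to its length and to all fragments of the library. Those described here are EIF4G1, EEF1D, GFM2, NUDT1, DHCR7, ARPC1B, SPINT2, IL32 and MAX. The genes were selected on these FPKM values alone, so the values that chose them are a description, and the table was itself already limited to transcripts that passed the authors' own test. The members made up 0.200% of the genes in the table and 0.656% of its 1525 genes with 2 or more transcripts.

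RNA-seq was performed on 1 library of cells with stable RBMS1 knockdown and 1 library of control cells, both grown in L-15 medium with 10% FBS without CO2. Per the study's methods, knockdown cells were infected with pLKO.1 lentivirus carrying an shRNA and selected with puromycin, and control cells carried the empty vector. There was no replicate in either group, so no test between the groups was possible and every difference describes these 2 libraries. The number of reads is unknown, and the median coverage per FPKM was 12.3 for knockdown and 11.3 for control cells.

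RBMS1, an RNA-binding protein and the target of the shRNA, was at 3.76 FPKM (95% interval within the library, summed over transcripts, 3.12 to 5.39) in knockdown cells and at 24.1 FPKM (21.7 to 27.7) in control cells, so that 15.6% of the control level was left. B4GALT1, a galactosyltransferase of the Golgi, was at 9.70 FPKM in knockdown cells and at 21.4 FPKM in control cells. The mesenchymal markers of the line were high in both libraries, with VIM at 496 and 563 FPKM, AXL at 251 and 229 FPKM and CD44 at 154 and 204 FPKM in knockdown and control cells. ESR1, PGR, CDH1, ESRP1 and ESRP2, which mark luminal or epithelial cells, were all below 0.1 FPKM in both libraries, while EPCAM was at 1.93 and 3.66 FPKM and ERBB2 at 7.5 and 7.0 FPKM. Markers of leukocytes (PTPRC, CD3E), endothelium (PECAM1, VWF), fibroblasts (COL1A1, DCN) and basal epithelium (KRT5, KRT14) were all below 1 FPKM in both libraries, and COL1A1 was the most abundant of them at 0.470 and 0.797 FPKM.

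Most human genes give rise to several transcripts through alternative promoters, alternative splicing and alternative cleavage and polyadenylation. A change of the first exon can alter the 5′ UTR and translation of an mRNA without touching its protein, whereas a cassette exon or another last exon can add, remove or replace part of the protein. Short-read data do not span whole transcripts, so the division of reads among isoforms that share most of their exons is an estimate that rests on a few exons or junctions.

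The 10 genes held 21 switched transcripts, 10 lost and 11 gained. Lost transcripts ranged from 2.35 to 6.61 FPKM in control cells and gained transcripts from 2.20 to 10.2 FPKM in knockdown cells. In the whole table, 132 transcripts (1.82%) had the lost pattern, and 181 (2.50%) had the gained pattern, which placed 120 further genes among those with lost transcripts only and 168 among those with gained transcripts only. At the lower edge of the rule, the smaller value of the pair was 2.45 FPKM for IL32, 2.35 FPKM for MAX and 2.23 FPKM for EIF4G1. Just outside it were ATP2C1 at 1.88 FPKM, CELF1 at 1.86 FPKM and CCT3 at 1.82 FPKM. With no limit on the level, 384 genes had transcripts at 0 in opposite libraries, so the 10 genes were the upper end of a larger set at low FPKM.

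**Figure D1:**
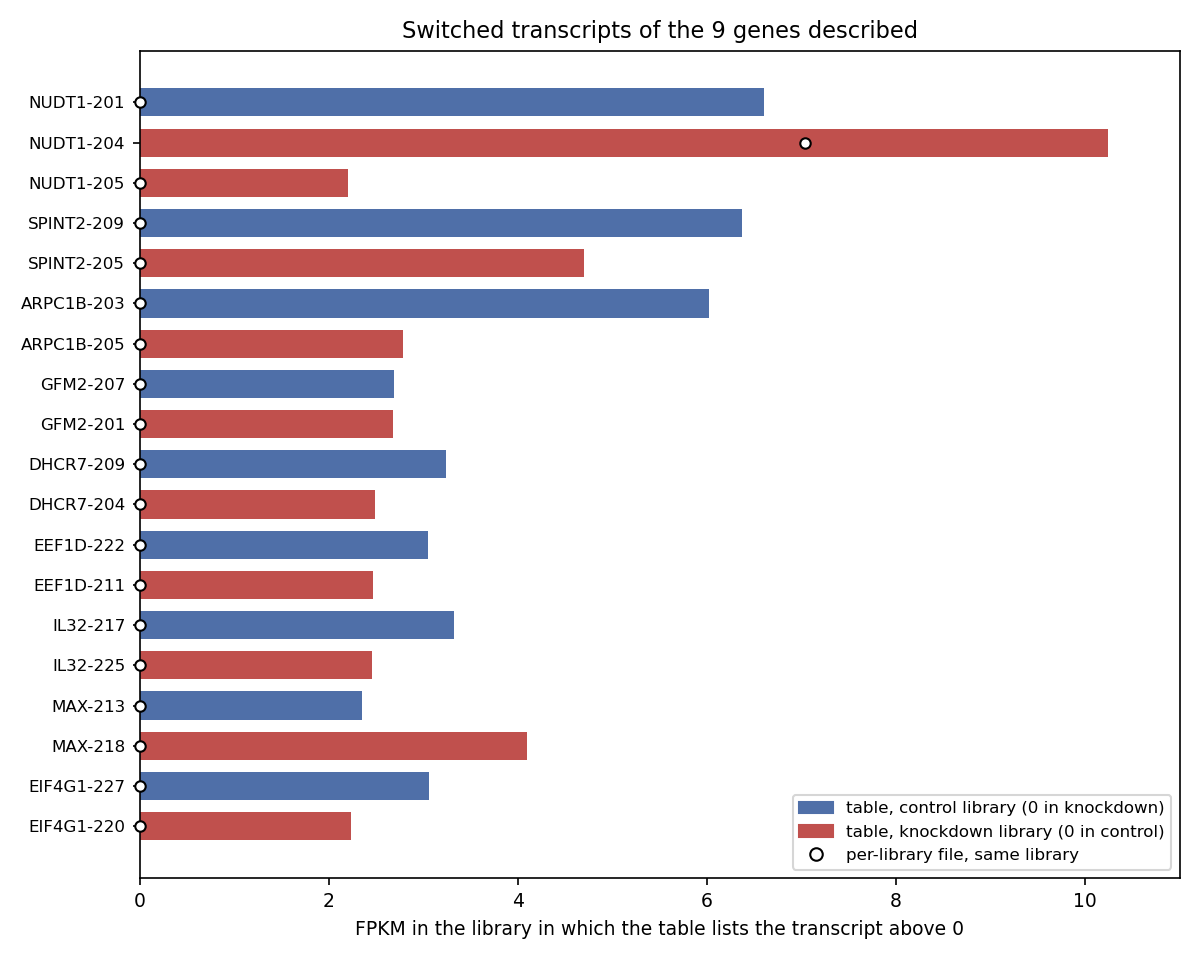
Bars give the FPKM of the switched transcripts of the 9 genes described in the authors' table, in the library where it was above 0 (blue for lost transcripts in the control library, red for gained transcripts in the knockdown library), and open circles give the FPKM of the same transcript and library in the per-library file. The circle of NUDT1-204 lies at 7.03 FPKM and the other 18 lie at 0.

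The per-library files, in which Cufflinks estimated each library on its own, listed 20 of the 21 switched transcripts at 0 in both libraries. The exception was NUDT1-204, at 7.03 FPKM (95% interval 5.58 to 8.48) after knockdown and at 0 in control cells, so that 4.76% of the switched transcripts had the same pattern in both sources. None of the 10 genes had both directions of its switch in the per-library files. This was common to switched transcripts of the table, of which 92.7% (290 of 313) were at 0 in both per-library files. The scales of the sources also differed. Transcripts at 1 FPKM or more in both were a median of 1.74 times higher in the table than in the per-library file of the knockdown library (n = 1040) and 1.78 times higher for the control library (n = 1000).

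A second readout of the per-library files, full read support, states whether reads covered all introns and internal exons of a reference transcript. It comes from the same reads as the table and is therefore no independent measurement. Of the 21 switched transcripts, 10 had full support only in the library in which the table listed them above 0, 4 had it in both libraries, 7 in neither, and none only in the library where they were listed at 0. For all 313 switched transcripts of the table, the share supported only where the table listed them above 0 was 38.7%, against 47.6% for the 21, and 3 of the 292 transcripts of other genes were supported only in the opposite library. The share in the 10 genes was thus near that of switched transcripts in general. Only in ARPC1B were both transcripts of the pair supported solely on the side of the table, since ARPC1B-203 had full support in the control library and ARPC1B-205 in the knockdown library.

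**Figure D2:**
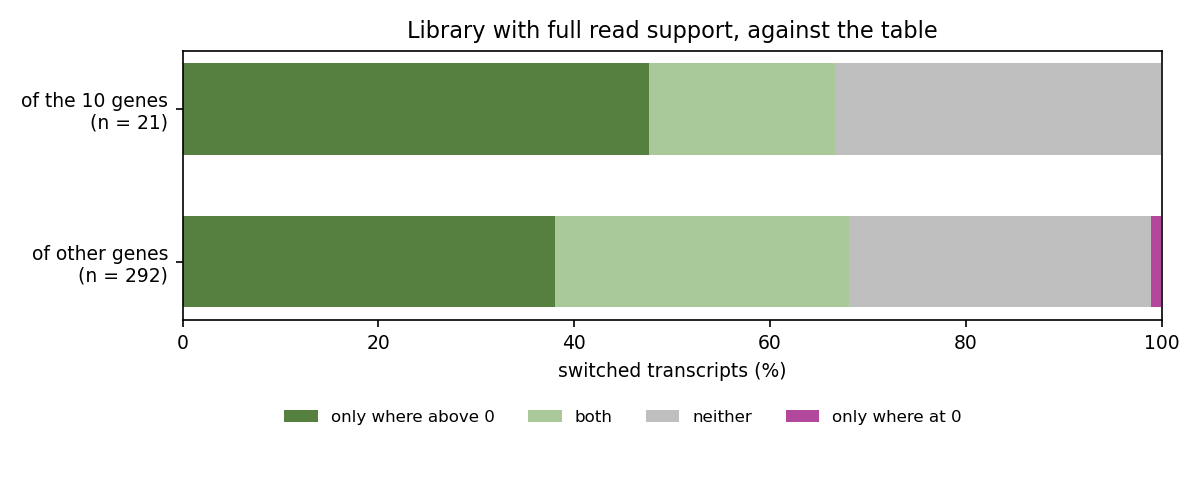
Each bar gives the percentage of switched transcripts by the library in which the per-library files report full read support, for the 21 transcripts of the 10 genes and the 292 of other genes. Support only in the library where the table listed the transcript above 0 was found for 47.6% of the former and 38.0% of the latter, and support only in the opposite library for 0% and 1.03%.

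All 21 switched transcripts were annotated as protein coding in GENCODE release 29, as were 98.3% of the other switched transcripts and 99.2% of all transcripts of the table. They were short, with a median length of 585 nt against 2223 nt for all transcripts of the table, and 17 of them (81.0%) were under 1000 nt, against 23.6% in the table. In 9 of them (42.9%) the annotation marks an end of the mRNA as not found, 8 at the 3′ end and 1 at the 5′ end, against 21.3% in the table. Switched transcripts of other genes had similar features, with a median of 600.5 nt and 61.7% with an incomplete end. Short and partial models were thus frequent among switched transcripts in general as well as in the 10 genes.

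For each gene, the lost transcript with the highest control value was compared with the gained transcript with the highest knockdown value. In 8 of the 10 pairs (80.0%) the starts or ends differed by more than 50 nt or lay in separate exons. A separate first exon was found in 3 pairs, a separate last exon in 3 and a cassette exon in 4. A splice site shifted in an intron whose other side is shared was found in 2 pairs, and a retained intron in none. The separate last exons of ARPC1B and EIF4G1 involve models with an incomplete 3′ end, and that of MAX does not. The separate first exon of IL32 rests on IL32-225, which begins inside the second exon of IL32-217. The 8 pairs likewise include models with an incomplete end. Among 1488 other genes of the table, compared by their 2 most abundant transcripts, 53.6% had a separate first exon, 36.6% a separate last exon, 42.5% a cassette exon, 20.9% a shifted splice site and 5.65% a retained intron. A start shifted by more than 50 nt was found in 1 of the 10 pairs and a shifted end in 2, against 18.1% and 31% of the other genes. In 1 pair the transcripts did not overlap, and 1 pair fell into no class, against 1.28% and 0.403%. Differing starts or ends were thus frequent in other genes as well, although their joint share was not counted. The coding sequence was the same in 3 of the 10 pairs, among them NUDT1 and GFM2, and in 12.0% of the other genes. In 5 of the remaining 7 pairs at least 1 model has an end marked as incomplete, and in IL32 and MAX neither has. However, IL32-225 holds almost only coding sequence, 444 of its 447 nt.

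Among the genes of translation, EIF4G1 (chr3:184314495-184335358, plus strand) encodes the scaffold of the cap-binding initiation complex. EIF4G1-227 was at 3.06 FPKM in control cells and listed at 0 in knockdown cells, and EIF4G1-220 was at 2.23 FPKM in knockdown cells and listed at 0 in control cells. Both models cover only the 5′ part of the mRNA, with 5 and 7 exons and an open 3′ end, and EIF4G1-227 lacks a 57 nt exon of the 5′ UTR. An exon of 87 nt in EIF4G1-220 begins 60 nt further upstream in EIF4G1-227, where it is 147 nt long. They part again after a coding exon of 177 nt. Across this junction the bases below are shown 5′ to 3′ from GENCODE release 29 on GRCh38, with the first 15 bases after the shared exon in capitals. The shared bases lie at chr3:184317483-184317497, and those in capitals at chr3:184317717-184317731 for EIF4G1-227 and at chr3:184317750-184317764 for EIF4G1-220, which starts the exon 33 coding bases later.
EIF4G1-227: tacatccctggacagGGGCGTTCCACATAC
EIF4G1-220: tacatccctggacagTACCCTGTGCAGCCA

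The junction of EIF4G1-227 is also that of EIF4G1-202 and EIF4G1-206, so it does not mark EIF4G1-227 alone. Neither switched transcript was above 0 in the per-library files, and neither had full read support in either library. Those files showed a different, larger contrast in EIF4G1. The transcript EIF4G1-221, which starts downstream of the first exons, was at 34.6 FPKM (32.7 to 36.4) in control cells and at 0 in knockdown cells, while EIF4G1-206, whose first exon lies at the upstream start of the gene, was at 20.4 FPKM (19.2 to 21.5) in knockdown cells and at 0 in control cells. The knockdown library also had an assembled transcript of 33 exons at 23.6 FPKM, all of whose 32 introns are annotated and which shares 5 of the 6 introns of EIF4G1-220. It also contains every intron of EIF4G1-221, including the 1 that is in no other EIF4G1 reference transcript above 0, so the introns of EIF4G1-221 were present in both libraries under separate identifiers. EIF4G1-202 was at 39.3 and 56.3 FPKM and EIF4G1-219 at 37.3 and 31.2 FPKM in knockdown and control cells. The sum for the gene, 121 FPKM in knockdown cells and 122 FPKM in control cells, hardly differed (log2 ratio −0.02, or −0.33 with reference transcripts only).

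EEF1D (chr8:143579697-143599541, minus strand) encodes the delta subunit of the exchange factor that recharges elongation factor eEF1A. EEF1D-222 was at 3.04 FPKM in control cells and EEF1D-211 at 2.47 FPKM in knockdown cells, each listed at 0 in the other library. Their first exons start 5246 nt apart, and EEF1D-211 has a further noncoding exon of 247 nt after its first. Both transcripts then run into a large upstream coding exon, of which EEF1D-222 holds 472 nt and EEF1D-211 244 nt before the models end. That exon is in none of the EEF1D transcripts above 0 in the per-library files. On the scale of those files, the switched pair would amount to 0.792% of the gene in control cells and 0.481% in knockdown cells. There the main contrast was EEF1D-229, a 533 nt model of the last 3 exons, at 167 FPKM (156 to 177) in knockdown cells and at 0 in control cells. Both introns of EEF1D-229 are also in EEF1D-202 and EEF1D-223, which were above 0 in both libraries. Its first exon is 235 nt long, against 222 nt for the matching exon of those isoforms, and the rest of the model is shared with them. How far the contrast reflects the division of shared reads was not tested. EEF1D-223 was at 78.4 and 130 FPKM and EEF1D-202 at 50.1 and 86.6 FPKM in knockdown and control cells, so both full-length isoforms were lower where the short model was high. The gene sum was 295 FPKM in knockdown cells and 216 FPKM in control cells (log2 ratio 0.45). EEF1D has 8 pseudogenes by name, and reads may be shared with them.

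GFM2 (chr5:74721204-74767371, minus strand), a mitochondrial elongation factor that acts in ribosome recycling, had the longest switched transcripts. GFM2-207 (3047 nt) was at 2.69 FPKM in control cells and GFM2-201 (3249 nt) at 2.67 FPKM in knockdown cells, each listed at 0 in the other library. They share 19 introns and 2337 nt of coding sequence, and they differ in a 118 nt exon of the 5′ UTR, in starts 266 nt apart and in ends 54 nt apart. In the per-library files all 10 GFM2 transcripts were at 0 in both libraries, although 6 of them in knockdown cells and 8 in control cells had full read support. Assembled fragments sharing no intron with GFM2 lay over the gene, 5 with a sum of 8.19 FPKM in knockdown cells and 3 with a sum of 8.31 FPKM in control cells. Exons of NSA2 on the opposite strand cover 373 nt of the switched exons, and NSA2 was itself at 14.1 FPKM in control cells and listed at 0 in knockdown cells. Because the strand of the libraries is not known, reads of GFM2 and NSA2 cannot be told apart where they overlap.

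**Figure D3:**
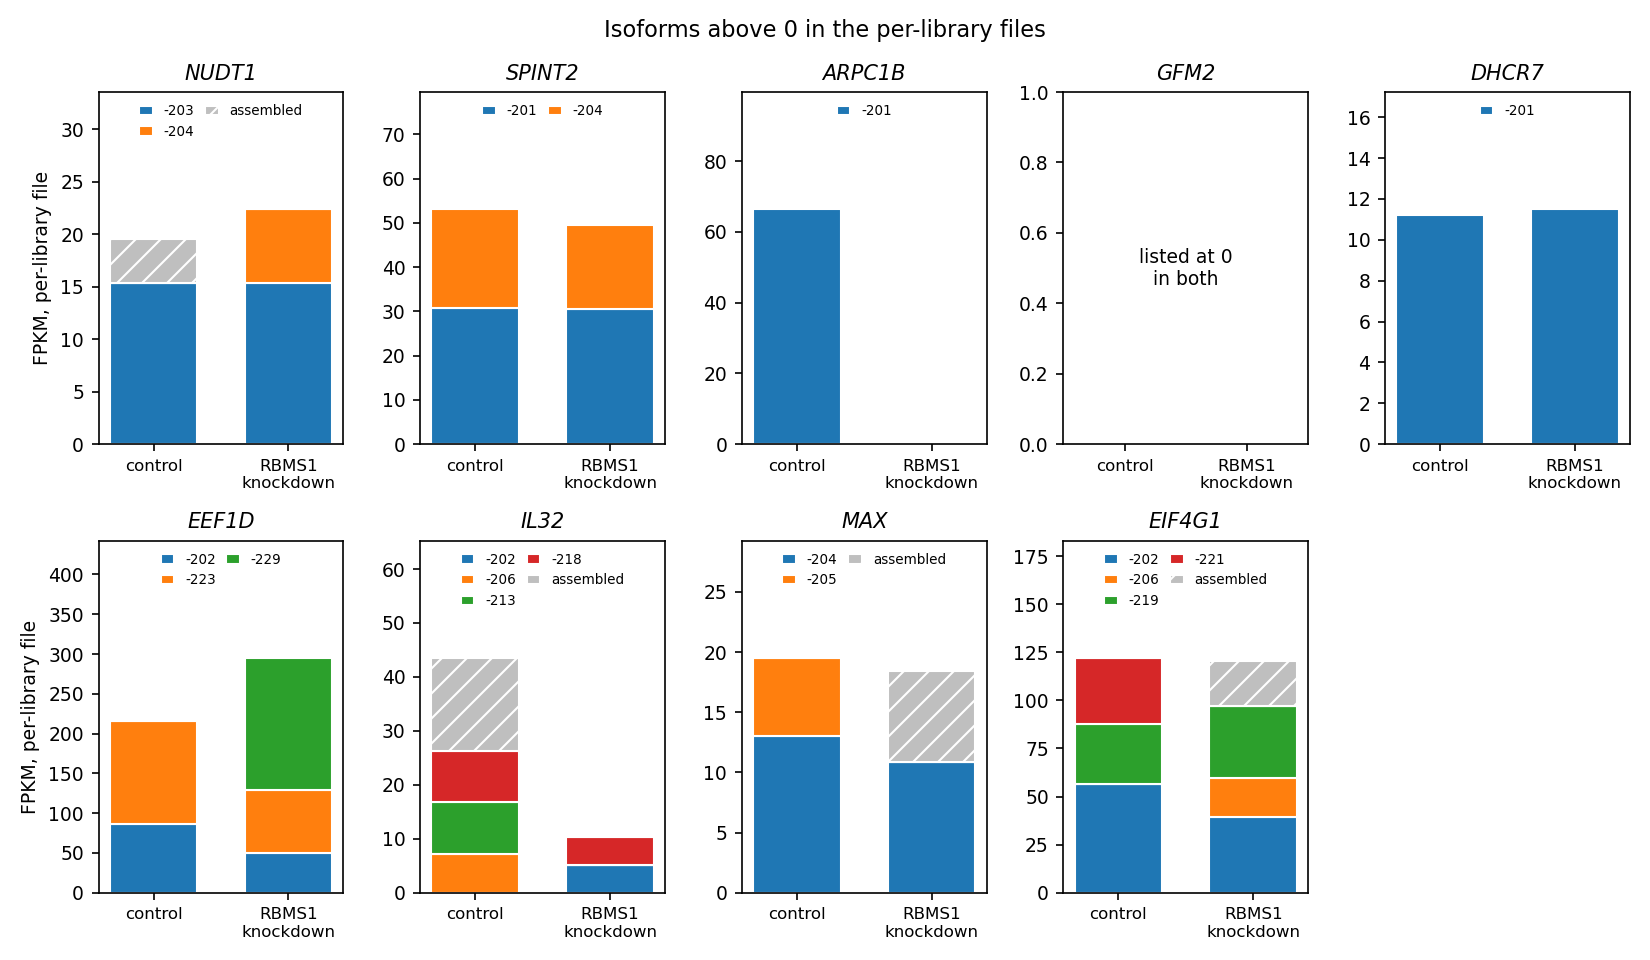
Stacked bars give the FPKM of every isoform above 0 in the per-library files, with 1 panel for each of the 9 genes described and 1 bar for each library; each panel has its own scale, and hatched grey marks transcripts assembled from the reads. The totals of the genes were alike in both libraries except in ARPC1B, IL32 and EEF1D, and GFM2 was listed at 0 in both.

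NUDT1 (chr7:2242222-2251146, plus strand) encodes MTH1, which hydrolyses oxidised purine nucleotides and keeps them out of DNA. It was the only gene whose pair exceeded 5 FPKM in both libraries. NUDT1-201 was at 6.61 FPKM in control cells, NUDT1-204 at 10.2 FPKM and NUDT1-205 at 2.20 FPKM in knockdown cells, each listed at 0 in the other library. NUDT1-201 starts in a 71 nt first exon, whereas NUDT1-204 starts 646 nt upstream with a 34 nt exon and then joins a 51 nt exon that is the 3′ part of the same stretch. The coding sequence of 468 nt is identical, so this difference is confined to the 5′ UTR. NUDT1-205 is the exception, with a 124 nt second exon that carries 57 coding nt and a coding sequence of 537 nt.

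The per-library files resolved this gene further. NUDT1-203, which skips the 51 nt exon, was at 15.3 FPKM (13.2 to 17.5) in knockdown cells and at 15.4 FPKM (13.2 to 17.6) in control cells. NUDT1-204 was found in knockdown cells only, but the control library had an assembled transcript at 4.17 FPKM (3.01 to 5.33) that contains the same 51 nt exon. The assembled transcript joins it to the first exon of NUDT1-203 through an intron that is not annotated, with the first exon ending 36 nt upstream of that of NUDT1-204. Transcripts with the 51 nt exon were thus present in both libraries and differed in the 5′ splice site before it. The gene sum was 22.4 FPKM in knockdown cells and 19.6 FPKM in control cells (log2 ratio 0.18, or 0.51 with reference transcripts only).

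DHCR7 (chr11:71428193-71452868, minus strand) encodes the reductase of the last step of cholesterol synthesis. DHCR7-209 was at 3.24 FPKM in control cells and DHCR7-204 at 2.48 FPKM in knockdown cells, each listed at 0 in the other library. The models nearly coincide, with starts 12 nt and ends 4 nt apart, first exons of 67 and 68 nt and second exons of 117 and 125 nt, all in the 5′ UTR apart from the open 3′ ends. Both sides of the first intron differ, so the pair fell into none of the structural classes. A further transcript of the table, DHCR7-202, was at 2.71 FPKM in knockdown cells and at 1.21 FPKM in control cells. In the per-library files only DHCR7-201 was above 0, at 11.5 FPKM (10.7 to 12.3) in knockdown cells and at 11.2 FPKM (10.4 to 12.0) in control cells. The intervals of this full-length isoform overlapped between the libraries.

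ARPC1B (chr7:99374249-99394816, plus strand) encodes a subunit of the Arp2/3 complex, which nucleates branched actin filaments. ARPC1B-203 was at 6.02 FPKM in control cells and ARPC1B-205 at 2.78 FPKM in knockdown cells, each listed at 0 in the other library. They start at the same base and share 8 introns. ARPC1B-203 has a 131 nt exon in the 5′ UTR that ARPC1B-205 skips, its next exon is 102 nt long and begins 20 nt upstream of the 82 nt exon of ARPC1B-205, and its model stops 13 nt into the exon in which ARPC1B-205 continues. ARPC1B-201, whose 5′ UTR lacks that exon and the next one, was at 66.3 FPKM (62.8 to 69.9) in control cells and listed at 0 in knockdown cells. All 21 ARPC1B transcripts in the knockdown file were at 0, yet 10 of them had full read support there. AC004922.1, a protein-coding gene on the same strand listed at 0 in both libraries, shares 1292 of the 1729 nt of the switched exons. Exons of the antisense neighbour PDAP1 cover 100 nt of them, and PDAP1 was at 71.9 FPKM in knockdown cells and 54.2 FPKM in control cells. A value of 0 beside full read support can be a failed estimate, so no fold is given for this gene.

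SPINT2 (chr19:38244035-38292614, plus strand) encodes a membrane-bound inhibitor of serine proteases such as hepsin and the activator of hepatocyte growth factor. SPINT2-209 was at 6.37 FPKM in control cells and SPINT2-205 at 4.69 FPKM in knockdown cells, each listed at 0 in the other library. The transcripts do not overlap at all. SPINT2-209 is a 301 nt model of the 5′ part with an open 3′ end, and SPINT2-205 a 383 nt model of the 3′ part with an open 5′ end. SPINT2-209 starts in a 100 nt exon upstream of the start of the isoforms above 0, and SPINT2-205 contains a 58 nt exon that is 39 nt long in those isoforms. AC011479.1, on the same strand and listed at 0 in both libraries, shares 133 of the 684 nt of the switched exons. In the per-library files SPINT2-201 was at 30.6 and 30.8 FPKM and SPINT2-204 at 18.8 and 22.3 FPKM in knockdown and control cells. The sum of 49.5 FPKM in knockdown cells and 53.0 FPKM in control cells gave a log2 ratio of −0.10.

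IL32 (chr16:3065297-3082192, plus strand) encodes a proinflammatory cytokine known for its many splice forms. IL32-217 was at 3.33 FPKM in control cells and IL32-225 at 2.45 FPKM in knockdown cells, each listed at 0 in the other library. IL32-225 lacks 2 coding exons of 60 nt each, so that its coding sequence is 444 nt long against 564 nt in IL32-217. The junctions that tell the pair apart are given 5′ to 3′ from GENCODE release 29 on GRCh38, with the shared bases in lower case and the exon joined next in capitals. The shared bases lie at chr16:3067401-3067415 for the upstream junctions and at chr16:3067996-3068010 for the downstream ones.
IL32-217, upstream: ctgaaggcccgaatgCACCAGGCCATAGAA
IL32-225, upstream: ctgaaggcccgaatgGTGATGTCGAGCCTG
IL32-217, downstream: ctggcagagctggagGACGACTTCAAAGAG
IL32-225, downstream: ctggcagagctggagGAGCTCACTCCTCTA

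IL32-225 was an exception among the transcripts of its gene. The other 9 IL32 transcripts in the table were all lower in knockdown cells, among them IL32-202 at 4.81 and 13.9 FPKM and IL32-213 at 2.45 and 13.8 FPKM in knockdown and control cells. In the per-library files the gene sum was 10.4 FPKM (8.43 to 15.4) in knockdown cells and 43.5 FPKM (36.3 to 53.9) in control cells (log2 ratio −1.97, or −1.26 with reference transcripts only). IL32-218, which lacks only the upstream 60 nt exon, was at 5.33 and 9.48 FPKM. IL32-202 was at 5.06 FPKM in knockdown cells and at 0 in control cells, whereas IL32-206 at 7.24 FPKM and IL32-213 at 9.62 FPKM were found in control cells only. These 3 isoforms have the same coding sequence and differ in their 5′ UTR and ends. An assembled transcript at 17.2 FPKM in control cells accounted for the largest part of the gene there. Its 6 introns are all annotated, but it lacks the last exon of the other isoforms above 0, with 363 coding nt. It joins instead a 97 nt exon at chr16:3081633-3081729, downstream of their ends. The exons before that one are identical to those of IL32-202. The 5′ exons of IL32-202 were therefore present in both libraries, under separate identifiers.

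MAX (chr14:65006174-65102695, minus strand) encodes the dimerisation partner of MYC and MXD transcription factors. MAX-213 was at 2.35 FPKM in control cells and MAX-218 at 4.10 FPKM in knockdown cells, each listed at 0 in the other library. They start at the same base and share 2 introns, and they end in different coding sequence after a 124 nt exon. MAX-213 reads on into the intron with 107 more coding nt, MAX-218 joins an 81 nt exon and then a last exon with 14 coding nt, and MAX-204, the most abundant isoform, joins a distal last exon with 185 coding nt. The bases over this point are given 5′ to 3′ on the minus strand from GENCODE release 29 on GRCh38, with the shared end of the 124 nt exon at chr14:65077913-65077927 in lower case and the continuation in capitals.
MAX-213: ttctggagcagcaagGTGAGCACCCGAGCT
MAX-218: ttctggagcagcaagGTGCTCTGCCTGCAG
MAX-204: ttctggagcagcaagTCCGTGCACTGGAGA

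MAX-213 had full read support in both libraries and MAX-218 in neither. In the per-library files MAX-204 was at 10.8 FPKM (9.86 to 11.8) in knockdown cells and at 13.1 FPKM (12.0 to 14.1) in control cells. MAX-205, which includes a 27 nt coding exon, was at 6.45 FPKM in control cells and at 0 in knockdown cells. The knockdown library had, in its place, an assembled transcript at 7.59 FPKM (6.80 to 8.38) with the same 4 introns and longer ends. Isoforms with the 27 nt exon were therefore present in both libraries, under separate identifiers. The gene sum was 18.4 FPKM in knockdown cells and 19.5 FPKM in control cells (log2 ratio −0.08, or −0.79 with reference transcripts only).

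**Figure D4:**
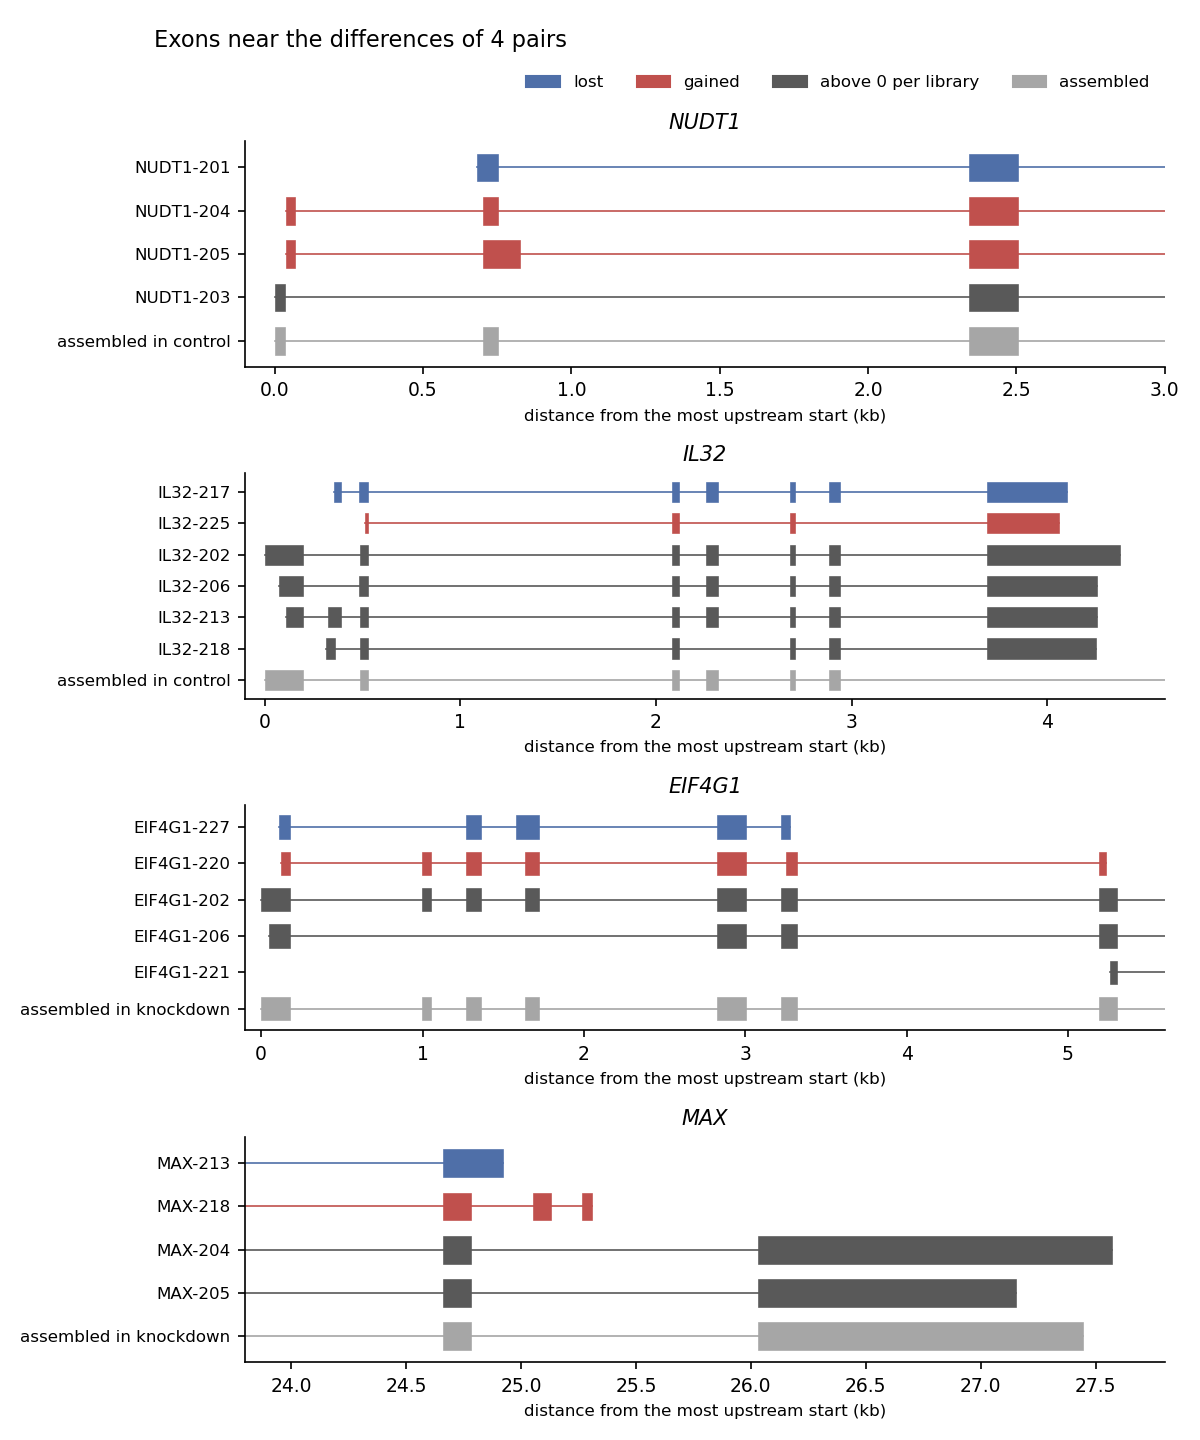
Exons (boxes, to scale) of the lost (blue) and gained (red) transcripts of NUDT1, IL32, EIF4G1 and MAX, with the isoforms above 0 in the per-library files that reach the drawn stretch (dark grey) and those assembled from the reads (light grey), against the distance in kb from the most upstream start drawn. The MAX panel shows the 3′ part of the gene, where MAX-213 and MAX-218 end upstream of the last exon of MAX-204.

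Across the 10 genes, 18 of the 21 switched transcripts had in each library at least 1 intron that no transcript of the gene above 0 in that library contained, counting ARPC1B and GFM2, whose sums were 0 in 1 or both libraries. For NUDT1-201 and MAX-213, all introns were shared with transcripts above 0 in both libraries. At the level of the gene, 9 of the 10 had a mean of at least 1 FPKM, ARPC1B only through the control library, and GFM2 did not. Their median log2 ratio was −0.08, against 0.02 for the 11186 genes that passed the same filter, and 6 of the 9 lay between −0.2 and 0.2, as did 51.2% of those genes. With reference transcripts only, 3 of the 9 and 44.1% of the same genes did. IL32 was at least 2-fold lower and none was 2-fold higher, while ARPC1B was listed at 0 in knockdown cells and is given no fold. Of all genes, counting those listed at 0 in 1 library, 2.80% were at least 2-fold lower and 2.96% at least 2-fold higher.

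None of 5 gene lists related to isoform choice or to the study held any of the 10 genes, but the lists had only 5 to 32 genes each in the table, where 0.200% of genes met the rule. Of 69 genes in the list of splicing regulators with a mean of at least 1 FPKM, only RBMS1, the target of the shRNA, was 2-fold lower. None was 2-fold higher, and the median log2 ratio was 0.03. CELF1, a splicing regulator of this list, was the only list gene whose pair reached 1 FPKM, with CELF1-211 at 1.86 FPKM in control cells and CELF1-210 at 1.94 FPKM in knockdown cells. Among 19 factors of nonsense-mediated decay, which degrades mRNAs with a premature stop codon, the median was −0.05. PYM1, which removes exon junction complexes, was at 16.2 FPKM in knockdown cells and at 4.49 FPKM in control cells (log2 ratio 1.65), and SMG8 was listed at 0 in knockdown cells and at 6.54 FPKM in control cells. Of 21 cleavage and polyadenylation factors (median −0.00), CPSF2 was at 8.49 FPKM in knockdown cells and at 25.5 FPKM in control cells (log2 ratio −1.48), which became −0.05 with reference transcripts only.

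Of 41 genes with isoforms regulated between epithelial and mesenchymal cells (median 0.07), MYO18A was at 14.8 FPKM in knockdown cells and at 5.67 FPKM in control cells (log2 ratio 1.24, or 0.63 with reference transcripts only), and no other was 2-fold changed. Of 29 enzymes of N-glycan synthesis and PD-L1 genes (median −0.11), MAN2A1 was at 11.1 FPKM in knockdown cells and at 24.3 FPKM in control cells (log2 ratio −1.07, or −4.66 with reference transcripts only), and B4GALT1 had a log2 ratio of −1.07, or −1.89 with reference transcripts only.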

How the data were processed

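RNA-seq was carried out on 1 RBMS1 knockdown and 1 control library, grouped by their labels. The submitters' processing notes name Bowtie2 2.0.6, TopHat2 2.0.9, Cufflinks 2.1.1 and Cuffdiff 2.1.1; the build and annotation are not given in the sources used here, and 98.1% of reference transcripts started at the GENCODE release 29 position on GRCh38. The authors deposited a table with the FPKM of 7236 transcripts in each library, whose columns of fold change, p-value and q-value from their own comparison were not used. They also deposited, for each library, a Cufflinks file with FPKM, its interval, coverage and full read support, listing 246627 transcripts in the knockdown and 250516 in the control library. Cufflinks can list a transcript at 0 where an estimate failed or where reads went to another isoform.

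The rule on opposite switches was applied to the table's FPKM columns with pandas 2.3.3 (Python 3.11.15). Structures were compared by exon coordinates, with ends counted as different beyond 50 nt, by functions tested on simulated data. Gene FPKM added up reference transcripts and those assembled transcripts that shared at least 1 intron with the gene on its strand. Log2 ratios of knockdown over control used 1 FPKM added to both values, and counts used genes with a mean of at least 1 FPKM. With 1 library per group, no test was made and no p-value was computed. Named genes were the members, of which 1 is not reported here, the 3 on either side of the limit, RBMS1, B4GALT1, markers, and list genes with a 2-fold difference or a switch at 1 FPKM. The members and lists were chosen with earlier results of these data known. Alternatives varied the limit, the source file, the pseudocount, the scaling, the filter and the distance between ends.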

Additional observations from a re-analysis of the deposited data

How the results depend on the processing

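The number of genes with opposite switches depended on the limit. It was 61 at 1 FPKM, 1 (NUDT1) at 5 FPKM, and 10 when up to 0.1 FPKM was allowed in the other library. The same rule on the reference transcripts of the per-library files gave 106 genes, and 0 genes had both directions of the table's switch in those files; the cause was not tested. With ends counted as different beyond 10 nt, 100% of the pairs differed at a start or end, against 80.0% at 50 nt and at 200 nt, which follows from the lower bound. The share of switched transcripts with the same pattern in the per-library files was 4.76% under both of its alternatives. The median log2 ratio of the genes was between −0.13 and −0.05 under the 6 alternatives. For single genes, 29 of 36 alternative values moved by at most 0.1 from the main log2 ratio, 7 moved by more, and none changed sign. Among the latter, NUDT1 went to 0.51, MAX to −0.79, EIF4G1 to −0.33 and IL32 to −1.26 with reference transcripts only. IL32 also went to −1.66 with a pseudocount of 5 FPKM. The remaining moves were those of ARPC1B under both other pseudocounts, and they were the largest. They rest on its listed knockdown value of 0, so no ratio is given for it. No paired analysis was possible because each group had 1 library. With no read counts, the precision of low FPKM values is known only from the intervals within each library.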

Other observations

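The per-library files held larger opposite switches than the table. By the same limits, 106 of 49399 genes had a lost and a gained reference transcript there, among them EIF4G1 and IL32 of the 10 genes. In 91 of the 106 the gene sums of both libraries were within 1.5-fold of each other, and in 41 no assembled transcript of the gene was above 0. The 4 genes with the largest smaller value of the pair outside the 10 genes, and HNRNPF as a splicing regulator, were singled out after their values were seen. GAS5, a noncoding host gene of small nucleolar RNAs, had GAS5-204 at 34.6 FPKM (32.1 to 37.1) in control cells and GAS5-218 at 77.5 FPKM (71.5 to 83.4) in knockdown cells, each at 0 in the other library. CCT5, a subunit of the chaperonin that folds actin and tubulin, had CCT5-213 at 33.9 FPKM in control cells and CCT5-203 at 119 FPKM in knockdown cells, which differ in the first exon, a cassette exon and the 3′ end. RBBP7, a histone-binding protein, had RBBP7-204 at 21.7 FPKM in control cells and RBBP7-202 at 20.6 FPKM in knockdown cells, with first exons that start 475 nt apart. WDR6 had WDR6-208, with 204 coding nt, at 22.6 FPKM in control cells and WDR6-220, with 3363 coding nt, at 25.5 FPKM in knockdown cells, and no other isoform of it was above 0. HNRNPF, a splicing regulator, had HNRNPF-207 at 13.2 FPKM in control cells and HNRNPF-203 at 16.6 FPKM in knockdown cells, with first exons 10473 nt apart and the same 1245 nt of coding sequence. CCT5 and HNRNPF also had assembled transcripts above 0, and GAS5, RBBP7 and WDR6 had none. Whether the assembled transcripts held the introns of the pairs was not tested. In the table, WDR6 and HNRNPF had 1 transcript each and the other 3 genes had none, so the rule could not be met there.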
